A study of Mus musculus with 11 samples.

Results

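Prostanoids are lipid mediators that vessels make from arachidonic acid, and 10 genes for their receptors and synthases were followed in the aorta of old mice with and without dietary nitrate. They were taken by symbol: Ptgs1 and Ptgs2 for the cyclooxygenases, Ptgis for prostacyclin synthase, and Ptgir, Ptger1, Ptger2, Ptger3, Ptger4, Tbxa2r and Ptgfr for the receptors. The array carried 11 probes for them among 55681 probes other than controls, with 2 probes for Ptger3 and 1 for each other gene. Of the 11 probes, 8 were detected, which covers 7 of the 10 genes.

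RNA of the descending aorta came from male C57BL/6 mice aged 20 months, and each mouse was measured on its own one-color Agilent array. The 5 old nitrate mice drank water with 1 g/L NaNO3 over 8 weeks. The 6 old control mice are labelled as control, and their arrays are labelled as reanalyses of earlier samples. Sodium chloride at the same concentration is named for the controls in the study's methods and not in the labels, whose treatment text names NaNO3 for every array, so whether both groups were kept together cannot be read from the labels. The study's methods state 6 mice in each group, and the sixth nitrate mouse is not analysed here.

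Cyclooxygenases turn arachidonic acid into the common precursor of all prostanoids, and terminal synthases convert that precursor into prostacyclin, thromboxane and the prostaglandins. Prostacyclin from the vessel wall relaxes smooth muscle and restrains platelets, while thromboxane contracts smooth muscle and activates platelets. Prostaglandin E acts through several receptors with opposite effects, of which the EP2 and EP4 receptors raise cyclic AMP and relax vessels, and the EP3 receptor mostly lowers cyclic AMP and can contract them.

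Of the 10 genes, Ptger3, the EP3 receptor, had lower signals in nitrate treated mice on both of its probes, and no other detected gene passed both thresholds of the study. The thresholds were P under 0.05 without adjustment, by the moderated test of limma, together with a fold change of more than 1.2, which is 0.263 on the log2 scale. Among all 23633 detected probes 2128 passed, which is 9.00%, with 982 higher (4.16%) and 1146 lower (4.85%). Of the 8 detected prostanoid probes 2 passed, and since both belong to 1 gene this is 1 of 7 genes. With 1 probe for each name, 1626 of 18294 names passed (8.89%). After Benjamini-Hochberg adjustment 3 of the 23633 detected probes stayed under 0.05 in limma (0.0127%), and none of the 8 did. In no prostanoid probe did the groups separate without overlap, which 650 of the detected probes did (2.75%), or 538 of the 18294 names (2.94%). The median difference over the 8 probes was 0.17 on the log2 scale, against 0.01 over all detected probes.

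Short stretches of the probes are shown to make clear what each signal rests on, since Ptger3 was read at a pair of distant places in its gene and Ptgs1 and Ptgs2 at 1 place each. Each line gives the first 30 of the 60 bases, 5′ to 3′, as the files list them.
Ptger3 probe 1: ctaaatgttcagctagagctgttaaaagga
Ptger3 probe 2: accagatcttggatccctgggtttatctgc
Ptgs1: gagccacacttagactctttccaaagatgt
Ptgs2: tttttgaaaagtttgaagttagaacttagg
On the plus strand of mm9, the build of the files, Ptger3 probe 1 lies at chr3:157307508-157307567 and probe 2 at chr3:157268044-157268103, with 39404 bases between them. The Ptgs1 probe lies at chr2:36107644-36107703 and the Ptgs2 probe at chr1:151954744-151954803, also on the plus strand. No exon annotation of mm9 was used here, so the exons that hold the probes are not given.

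The arrays were of similar quality, with no more than 186 of 59305 spots flagged on an array and a median correlation between arrays of 0.991. They lay on 3 slides that each held both groups, all controls in slide column 3 and no nitrate array there, so the column cannot be told apart from the treatment. The array of control 1 stood apart, with the lowest mean correlation (0.985). It had the highest Ptger3, the lowest Ptgs2 and the lowest Ptgis signals, so these values are also given without it. Values are log2 of the quantile normalized signal, and signals of different probes are not compared with each other. In RNA of a whole vessel, fewer cells of a type and less RNA in each cell cannot be told apart. The signal of smooth muscle, endothelial and fibroblast genes was well above background on all arrays, with Acta2 between 17.76 and 18.06 and Nos3 between 10.86 and 11.50.

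**Figure D1:**
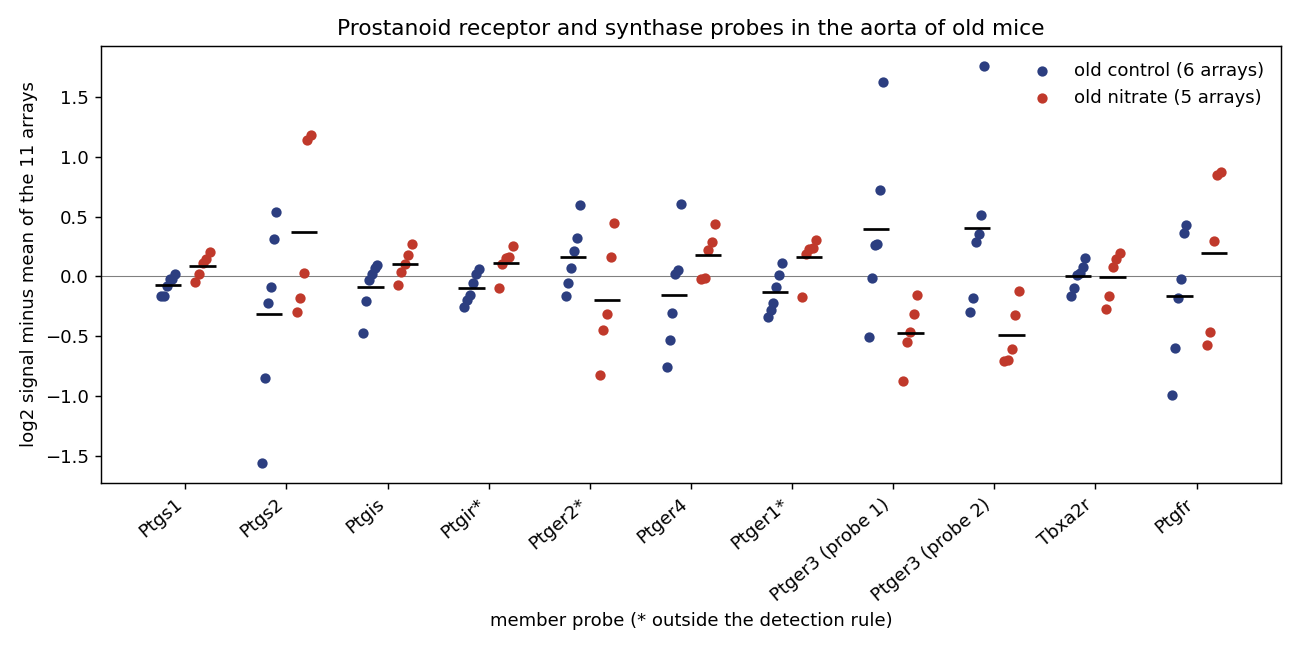
Log2 signal of each prostanoid probe on each array, minus the mean of the 11 arrays for that probe, with 1 point for each mouse (6 old controls in blue, 5 old nitrate mice in red) and a bar at the group mean. Both Ptger3 probes have all 5 nitrate points below 0, while in every probe the points of the groups overlap.

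Ptgs1 encodes the cyclooxygenase that most cells carry at a steady level. Its log2 signal was 9.88, 9.91, 9.79, 9.97 and 9.72 in nitrate mice, and controls had 9.60 to 9.79, with a median of 9.72. In 3 nitrate mice the signal was above every control, while nitrate 3 and 5 lay within the controls. The difference was 0.16 (95% interval 0.01 to 0.30), or 1.12-fold, with an adjusted P value of 0.319 in limma. At an unadjusted P value of 0.0344 by limma it fell short of the limit on the fold change. Without that limit 3394 detected probes (14.4%) passed. An exact permutation test, two-sided and over the 462 divisions of the mice, gave p = 0.0216, where 0.00216 is the smallest possible. Within slides 1, 2 and 3 the difference was 0.16, 0.11 and 0.17, so the size was similar on each slide.

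Ptgs2 encodes the inducible cyclooxygenase and varied most between mice among the synthases. Its signal was 7.36, 8.84, 8.80, 7.69 and 7.48 in nitrate mice. In controls it ran from 6.10 to 8.20, with a median of 7.50. Nitrate 2 and 3 were the highest of the 11 mice and control 1 and 6 the lowest, and the others were mixed. The difference of 0.69 on the log2 scale had a 95% interval from -0.19 to 1.56 and an adjusted P value of 0.455 in limma, and the exact permutation test gave p = 0.156. On slides 1 and 2 nitrate mice were higher by 1.26 and 1.41, while on slide 3 the difference was -0.23. Without control 1 it was 0.44.

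The array carries the Ptgs2 probe at 10 spots, so the error between spots of 1 array can be given. Before normalization, the SD of the log2 signal over the 10 spots of an array was between 0.071 and 0.154, with a median of 0.088. The SD of the normalized signal between mice was 0.78 in controls and 0.73 in nitrate mice. The SD of the normalized signal between all 11 arrays was 9.11 times the median SD between spots, and it holds the labeling and hybridization of each array beside the differences between mice.

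**Figure D2:**
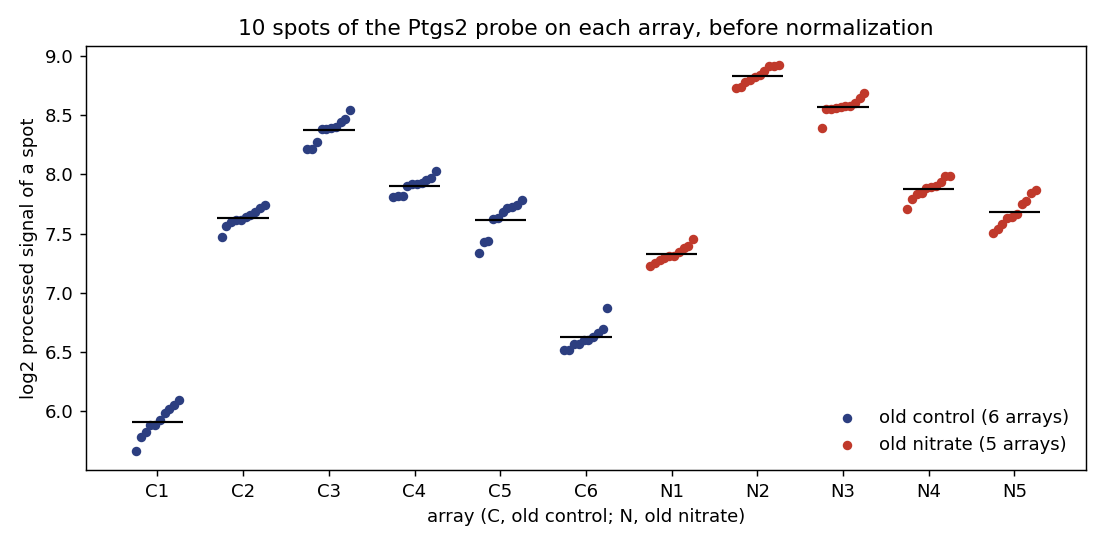
Log2 processed signal of each of the 10 spots of the Ptgs2 probe on each array before normalization, sorted within an array, with a black line at the mean (C, old control; N, old nitrate). The spots of an array lie close together, with array means from 5.91 in control 1 to 8.83 in nitrate 2.

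Ptgis encodes prostacyclin synthase, the last step to prostacyclin in the vessel wall. Its signal was 15.87, 15.96, 15.73, 15.80 and 15.62 in nitrate mice and 15.21 to 15.79 in controls, with a median of 15.69. Control 1 was the lowest and 3 nitrate mice were above every control, but nitrate 5 lay below 4 controls. The difference was 0.19 (95% interval -0.05 to 0.43), with an adjusted P value of 0.441 in limma and p = 0.117 in the exact permutation test. It was 0.56 on slide 1, which holds control 1, and -0.02 and -0.0010 on slides 2 and 3. Without control 1 it was 0.11.

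Among the receptors that relax vessels, Ptgir encodes the prostacyclin receptor. On all 11 arrays the probe was well above background, yet its spot was called found on too few of them, 2 nitrate and 3 control arrays, to be counted as detected. The signal was 7.77, 7.92, 7.57, 7.83 and 7.82 in nitrate mice, against 7.41 to 7.73 in controls, with a median of 7.56. In 4 of 5 nitrate mice it was above every control, and nitrate 3 lay within the controls. In a fit over all 55681 probes the difference was 0.21 (95% interval 0.03 to 0.39), with an unadjusted P value of 0.0254 by limma, and at 1.16-fold it was under the limit on the fold change. Without nitrate 3 it was 0.27 and past both thresholds. The exact permutation test gave p = 0.0325. It was 0.30, -0.05 and 0.28 on slides 1, 2 and 3.

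Ptger4 encodes the EP4 receptor. Its signal was 6.29, 6.73, 6.58, 6.28 and 6.52 in nitrate mice and 5.54 to 6.91 in controls, with a median of 6.16. Control 2 was the highest of all mice and 3 controls were below every nitrate mouse. The difference was 0.33 (95% interval -0.12 to 0.79), with an adjusted P value of 0.486 in limma and p = 0.193 in the exact permutation test. It was -0.12 on slide 1 and 0.70 and 0.47 on slides 2 and 3. The probe met the detection rule through the nitrate group, where its spot was found on 5 arrays against 4 in controls. The size depended on single arrays, since it was 0.49 without control 2 and past both thresholds (unadjusted P value 0.0125, limma), and 0.21 without control 5 (unadjusted P value 0.281, limma). Under normexp background correction it was 0.17.

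Ptger2 encodes the EP2 receptor and was at the limit of the array. Its probe was well above background on 1 control array and on no nitrate array. The signals were 3.11 to 4.37 in nitrate mice and 3.77 to 4.53 in controls, and at this brightness no fold change is given.

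Ptger3 encodes the EP3 receptor, which couples mainly to inhibitory G proteins and is also known from adipocytes, where it restrains lipolysis. On probe 1 its signal was 8.55, 7.99, 8.71, 8.40 and 8.31 in nitrate mice, against 8.36 to 10.49 in controls, with a median of 9.13. Control 1 was the highest by far, and 5 of 6 controls lay above every nitrate mouse. The overlap came from control 6, which was below 3 nitrate mice.

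On probe 2 the signal was 7.53, 7.14, 7.73, 7.15 and 7.24 in nitrate mice and 7.55 to 9.61 in controls, with a median of 8.17. Here too control 1 was the highest, and control 5 and 6 lay below nitrate 3 only. Ptger3 fell by 0.87 on the log2 scale on probe 1 (95% interval -1.53 to -0.20, 1.82-fold) and by 0.90 on probe 2 (95% interval -1.57 to -0.23, 1.86-fold). The unadjusted P values in limma were 0.0150 and 0.0128 and the adjusted P values 0.267 and 0.254. By exact permutation, two-sided, p was 0.0260 and 0.0173. A change at least as large as that of probe 1 was measured in 91 of the 23633 detected probes (0.385%). Ptger3 and Ptger1 are among the genes that the study itself picked from these mice, so their direction here is not independent evidence.

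The Ptger3 difference was smaller without control 1 and kept its direction. Without this array probe 1 differed by -0.62 (unadjusted P value 0.0133, limma) and probe 2 by -0.63 (unadjusted P value 0.00484, limma), and both still passed the thresholds. With each of the 11 arrays left out in turn the difference lay between -1.05 and -0.62 on probe 1 and between -1.04 and -0.63 on probe 2. Within slides 1, 2 and 3 it was -1.54, -0.04 and -0.86 on probe 1 and -1.57, -0.12 and -0.82 on probe 2. On slide 2, which held 1 nitrate mouse and 2 controls, there was thus almost no difference.

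The probes of Ptger3 followed each other across the 11 mice, with a Pearson correlation of 0.98 (permutation test, p = 1e-05, the smallest it can give) and a Spearman correlation of 0.95 (permutation test, p = 3e-05). Without the 2 arrays farthest from the median it was 0.93, and with the group means taken out 0.96. Since both probes were read on the same arrays from the same RNA, this covers the error of a single probe and not the spread between mice.

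Adipocyte genes, like Ptger3, had lower signals in nitrate mice. Of 8 adipocyte genes, all well above background on every array, 8 were lower in nitrate mice and 3 passed the thresholds, namely Adipoq (-0.49), Retn (-0.84) and Pnpla2 (-0.31), the first pair with no overlap between the groups. This is 37.5% of the list, against 8.89% of all detected names that passed and 2.94% without overlap. The labels state that fat around the vessel had been removed. Their mean log2 signal ran from 12.76 to 13.35 in nitrate mice and from 13.15 to 13.84 in controls, and their summed signal from 171887 to 248174 and from 206560 to 312670. Over the 11 mice the Pearson correlation between this mean and probe 1 of Ptger3 was 0.80 (permutation test, p = 0.00347, adjusted over 8 marker lists 0.0278), and the Spearman correlation was 0.71 (permutation test, p = 0.0183, adjusted 0.147). Without nitrate 1 and control 3, the 2 arrays farthest from the median of the list, the Pearson correlation was 0.92. That value keeps control 1, which had the highest Ptger3 signal. Without control 1 the correlation was 0.70, and without control 1 and 3 it was 0.43, so its size rested on these controls. With group means taken out and all 11 mice kept, it was 0.67 for adipocytes, 0.66 for endothelium and 0.58 for brown adipocytes. By the same measure it was -0.69 for smooth muscle and -0.59 for fibroblasts. Without control 1, and with group means left in, those other lists were at 0.12, 0.04, -0.27 and -0.49, in the same order. The macrophage, striated muscle and platelet lists were at 0.19, 0.15 and 0.10 over all mice, and at -0.14, -0.55 and -0.16 without control 1. Of the 8 lists, adipocytes and fibroblasts had an adjusted P value under 0.05 by Pearson correlation and none by Spearman correlation. The part of adipocyte RNA in the Ptger3 difference was not tested.

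Of 7 brown adipocyte genes 4 were lower and 1 passed, Cidea (-0.52), and their mean lay between 11.71 and 12.79 in nitrate mice and between 12.14 and 13.06 in controls. Most smooth muscle and fibroblast genes lay the other way. Of 8 smooth muscle genes 7 were higher in nitrate mice, with a median of 0.11, and 1 passed, Lmod1, which rose by 0.31, while Smtn (0.26) had no overlap and missed the limit on the fold change. Of 8 fibroblast genes 8 were higher, with a median of 0.14. By the probe that stands for each gene, none passed in the lists for endothelium, fibroblasts and macrophages, with 8 genes each, for platelets with 5 detected genes, or for striated muscle with 7. Of these 7, 6 were higher in nitrate mice, with a median of 0.54 and a mean that ran from 7.83 to 12.15 in nitrate mice and from 7.41 to 11.65 in controls. Another probe of the endothelial gene Kdr fell by 0.57 (unadjusted P value 0.00646, limma), while the one that stands for it differed by -0.10. For mesothelium 0 of 7 genes were detected. The fibroblast list correlated with Ptger3 at -0.75 (permutation test, p = 0.00832, adjusted 0.0333), and this rested on nitrate 2 and control 1, the arrays farthest from its median, without which it was -0.30. The smooth muscle list correlated with Ptger3 at -0.74 (permutation test, p = 0.0205, adjusted 0.0546), which likewise rested on nitrate 1 and control 1, without which it was -0.26, and its Spearman correlation was -0.28 (permutation test, p = 0.401, adjusted 0.558). The Spearman correlation for fibroblasts was -0.55 (permutation test, p = 0.0872, adjusted 0.349).

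**Figure D3:**
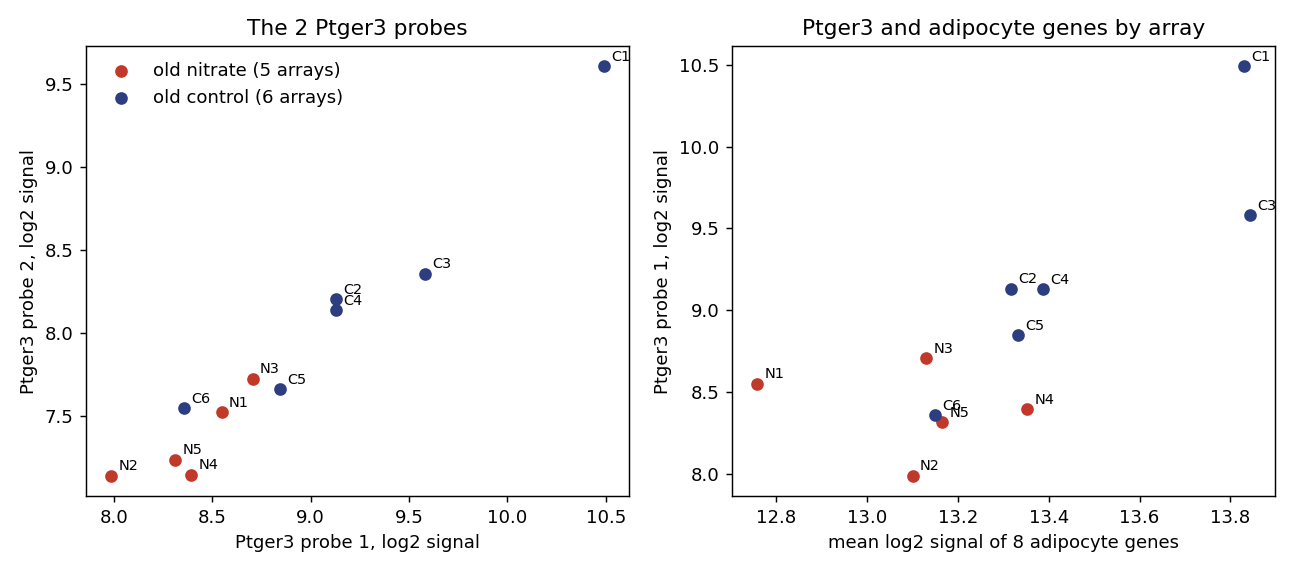
Left, log2 signal of Ptger3 probe 2 against probe 1, and right, Ptger3 probe 1 against the mean log2 signal of 8 adipocyte genes, with 1 labelled point for each mouse (C, old control, blue; N, old nitrate, red). Control 1 is at the upper right in both panels and control 6 lies among the nitrate mice.

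The 250 bases upstream of the Ptger3 start are shown because it was the gene that passed on both probes. They come from RefSeq (GRCm38.p6, plus strand, chr3:157566626-157566875), with GC boxes in capitals.
Ptger3 promoter: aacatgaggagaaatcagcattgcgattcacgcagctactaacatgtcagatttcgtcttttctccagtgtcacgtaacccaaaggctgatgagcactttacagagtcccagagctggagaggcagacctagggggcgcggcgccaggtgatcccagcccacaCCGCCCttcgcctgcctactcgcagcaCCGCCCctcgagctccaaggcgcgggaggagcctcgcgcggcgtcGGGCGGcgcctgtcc
The GC box GGGCGG, counted on both strands, occurred 3 times, starting 87, 60 and 15 bases before the start. At least 1 GC box was held by 32.7% of the 32851 RefSeq promoter windows of the same length. The cAMP response element TGACGTCA (1.55% of windows), the E-box CACGTG (6.02%), the TATA box TATAAA (12.4%) and the AP-1 site TGANTCA (6.75%) were not found in it, and no matches overlapped. Among the other receptors, Ptger4 had 4 GC boxes, Ptgir 2 and Ptgfr 1, while Ptger2 and both Tbxa2r windows had none. Ptgs2 had 1 GC box and Ptgs1 had none. The table held windows for 8 of the 10 genes, without Ptger1 and Ptgis.

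Among the other receptors that can contract vessels, Ptger1 encodes the EP1 receptor. On all 11 arrays the probe exceeded background, yet its spot was found on 3 nitrate and 2 control arrays and so the probe was not counted as detected. The signal was 6.01, 6.01, 5.97, 6.08 and 5.61 in nitrate mice and 5.44 to 5.89 in controls, with a median of 5.62. The 4 highest values were in nitrate mice and nitrate 5 lay within the controls. In the fit over all probes the difference was 0.29 (95% interval 0.05 to 0.53), or 1.22-fold, with an unadjusted P value of 0.0224 by limma, which is past both thresholds. In that fit 3224 of 55681 probes passed (5.79%). The exact permutation test gave p = 0.0346. On slides 1, 2 and 3 the difference was 0.37, 0.35 and 0.18. The call was lost under 5 of 23 alternative settings. The difference was under the limit on the fold change with normexp background correction (0.14), an offset of 16 (0.23), without control 2 (0.262) and without control 5 (0.25), and without nitrate 4 it was 0.25 with an unadjusted P value of 0.0561 by limma.

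Tbxa2r encodes the thromboxane receptor. Its signal was 10.6995, 10.65, 10.59, 10.24 and 10.35 in nitrate mice and 10.34 to 10.66 in controls, with a median of 10.53. Nitrate mice held both the highest and the lowest values. The difference was -0.0042 with a 95% interval from -0.22 to 0.21, an adjusted P value of 0.991 in limma and p = 0.955 in the exact permutation test. It was 0.21 and 0.06 on slides 1 and 2 and -0.24 on slide 3. The interval leaves room for a change of up to about 0.2 in either direction.

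Ptgfr encodes the receptor for prostaglandin F and was dim, well above background on 3 of 5 nitrate and 5 of 6 control arrays. Its signal was 4.37, 5.13, 4.26, 5.70 and 5.68 in nitrate mice and 3.84 to 5.26 in controls, with a median of 4.73. Nitrate 4 and 5, both on slide 3, were the highest, and the other nitrate mice lay within the controls. The difference was 0.36 (95% interval -0.36 to 1.08), with an adjusted P value of 0.641 in limma and p = 0.327 in the exact permutation test. It was -0.25 and -0.18 on slides 1 and 2 and 1.14 on slide 3, so its sign turned between slides. With 1 array left out it lay between 0.20 (without nitrate 4, and similarly without nitrate 5 or control 5) and 0.56 (without nitrate 3), and under normexp background correction it was 0.16.

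**Figure D4:**
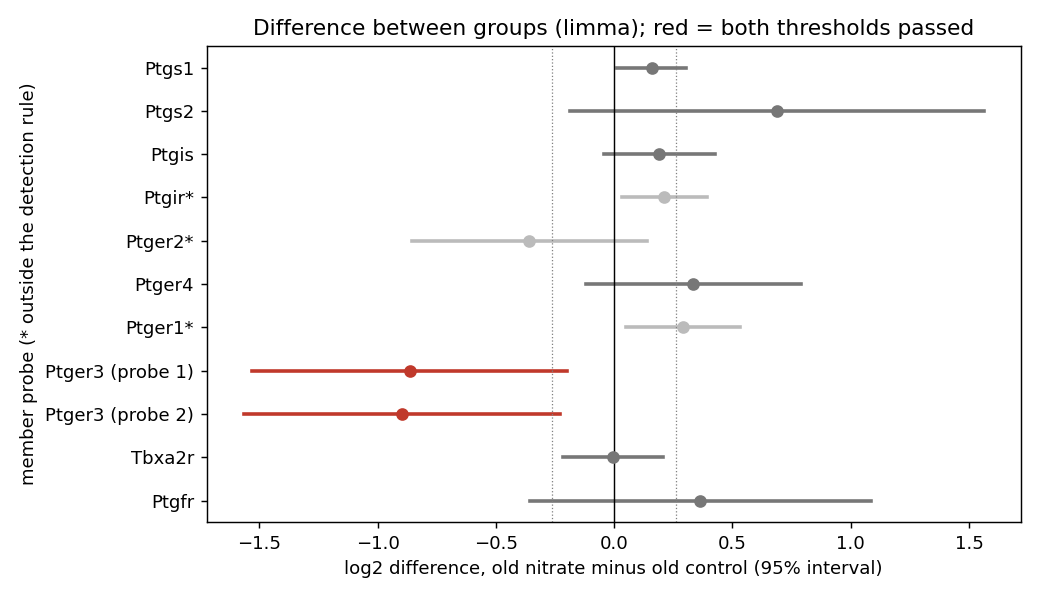
Difference in log2 signal, old nitrate minus old control, for each prostanoid probe, with its 95% interval from limma (5 against 6 arrays). Red marks the probes that passed both thresholds, light gray with an asterisk the probes outside the detection rule, and dotted lines the limit of 1.2-fold in either direction. Both intervals of Ptger3 lie below 0.

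Across the 11 mice, none of the 21 pairs of the 7 detected genes had an adjusted P value under 0.05 by Pearson or Spearman correlation, and 2 pairs had an unadjusted P value under 0.05 by each. The first pair was Ptger3 and Ptgis, which varied in opposite directions, with a Pearson correlation of -0.85 (permutation test, p = 0.00282, adjusted 0.0592) and a Spearman correlation of -0.68 (permutation test, p = 0.0257, adjusted 0.269). It was -0.66 without the 2 arrays farthest from the median of Ptger3, which were control 1 and 3, and -0.80 with group means taken out. The other pair was Ptgfr and Tbxa2r, with -0.78 (permutation test, p = 0.00573, adjusted 0.0602) and a Spearman correlation of -0.73 (permutation test, p = 0.0145, adjusted 0.269). Neither pair passed the correction, and both are named after their values were seen.

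Beyond the 10 genes, 32 further genes of the pathway were listed by role, of which 31 were on the array and 27 detected. Of these 6 passed both thresholds (22.2%, against 8.89% of all names), with 2 higher and 4 lower, and in none did the groups separate without overlap. The median difference was -0.01, against 0.01 over all detected probes. After Benjamini-Hochberg adjustment in limma 0 of the 27 remained under 0.05, and before it 6 were. The balance of directions was not stable, with 3 higher and 3 lower under the 75th percentile scaling. Without control 1, 3 passed in place of 6, 2 higher and 1 lower, and without control 3, 7 passed, 4 higher and 3 lower.

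Of 7 detected phospholipases, the enzymes that free arachidonic acid from membranes, 2 passed, in opposite directions. Pla2g4a, the calcium dependent cytosolic form, rose by 0.27 (95% interval 0.04 to 0.50), with signals of 10.34 to 10.47 in nitrate mice and 9.71 to 10.40 in controls. Pla2g6, the calcium independent form, fell by 0.40 (95% interval -0.66 to -0.14), with signals of 7.79 to 7.98 against 7.92 to 8.62. The adjusted P values were 0.292 and 0.205 in limma. Pla2g6 passed with each array left out, and Pla2g4a was under the limit on the fold change without control 1 (0.19), without nitrate 5 (0.261) and under normexp background correction (0.2625).

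Of 7 detected terminal synthases 2 passed and both were lower. Ptgds, a prostaglandin D synthase, fell by 0.48 (95% interval -0.88 to -0.07), with signals of 7.31 to 8.24 in nitrate mice and 7.99 to 8.69 in controls. Ptges2, a prostaglandin E synthase, fell by 0.31 (95% interval -0.61 to -0.01), with an adjusted P value of 0.340 in limma, and missed a threshold under 14 of 23 alternative settings. Without control 1 neither passed, at -0.41 for Ptgds and -0.21 for Ptges2. Ptgds also missed the threshold without nitrate 2 (-0.34, unadjusted P value 0.0667, limma) and without control 2 (-0.41, unadjusted P value 0.0536, limma). For Ptges, the inducible prostaglandin E synthase, the probe that stands for the gene differed by 0.03 and another by -0.85 (unadjusted P value 0.0339, limma), so its probes disagree. Tbxas1, thromboxane synthase, differed by -0.32 (95% interval -0.72 to 0.07) and did not pass.

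Of 5 detected genes for transport and breakdown 2 passed, again in opposite directions. Slco2a1, which carries prostaglandins into cells, rose by 0.34 (95% interval 0.08 to 0.61), with signals of 10.01 to 10.38 in nitrate mice and 9.51 to 10.07 in controls, and an adjusted P value of 0.271 in limma. Ptgr2, a prostaglandin reductase, fell by 0.33 (95% interval -0.59 to -0.06), with signals of 10.28 to 10.72 against 10.56 to 11.25. Ptgr2 did not pass without control 1 (-0.24) or without nitrate 2 (-0.27, unadjusted P value 0.0538, limma). Another probe of Ptgr2 differed by -0.28 (unadjusted P value 0.110, limma) and did not pass. A further one differed by -0.32 (unadjusted P value 0.0352, limma) and passed. Hpgd, the enzyme that inactivates prostaglandins, differed by 0.33 and 0.30 on its 2 probes, with unadjusted P values of 0.0530 and 0.0479 in limma, so the latter passed and the former did not.

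None of the 7 detected G protein alpha subunits passed, and their median difference was 0.02. Gnas, the subunit through which EP2, EP4 and the prostacyclin receptor raise cyclic AMP, differed by 0.02 on the probe that stands for it and by 0.44 on another (95% interval -0.10 to 0.98). The inhibitory subunits Gnai1, Gnai2 and Gnai3, to which EP3 couples, differed by 0.07, 0.07 and 0.11. Both receptors for prostaglandin D, Ptgdr and Ptgdr2 (named Gpr44 in the files), were not well above background on any array.

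**Figure D5:**
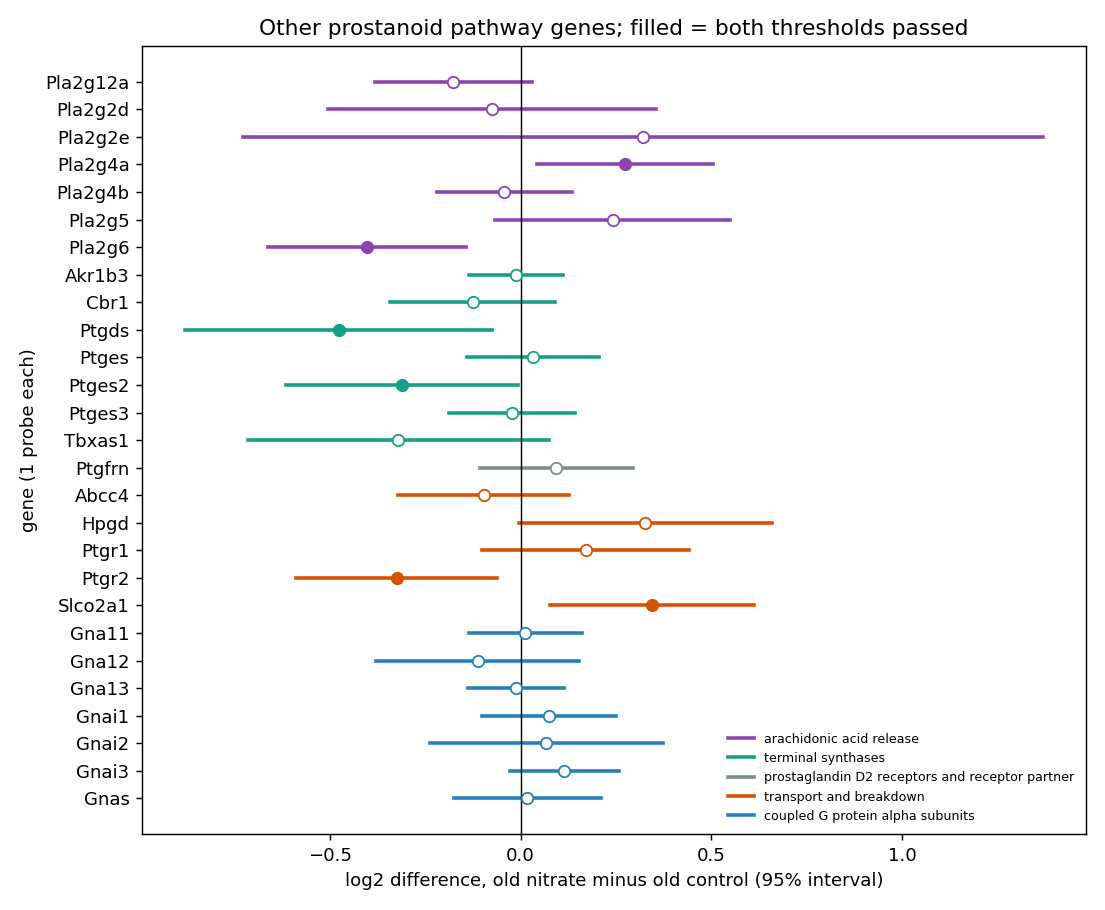
Difference in log2 signal, old nitrate minus old control, for the 27 detected pathway genes outside the 10, 1 probe for each, with its 95% interval from limma, colored by role. Filled points passed both thresholds, 2 of them to the right of 0 (Pla2g4a and Slco2a1) and 4 to the left (Pla2g6, Ptgds, Ptges2 and Ptgr2).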

How the data were processed

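Total RNA of the descending aorta was labeled with Cy3 and hybridized by the authors to one-color Agilent 8x60K mouse arrays. The authors deposited, for each array, the spot intensity and quality flags from Feature Extraction 10.7.1.1, background-subtracted and not normalized between arrays. They also deposited a log2 table, which was used as an alternative only. Its scale and direction were checked against the scanner values, and its values are quantile normalized and centred on the median of the samples, with column medians of 0 apart from -0.0087 for nitrate 4 and -0.027 for control 5.

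From the intensities, control spots and spots flagged as outliers were removed, the signal was raised to at least 1, spots of 1 probe were averaged and log2 values were quantile normalized over 11 arrays. A probe was detected where at least 0.5 of its spots were found and well above background in 5 or more arrays of 1 group. Calculations used R 4.3.3 with limma 3.58.1 (lmFit, eBayes, Benjamini-Hochberg) and Python 3.11.15 with scipy 1.17.1. The fit ran over all detected probes, and probes outside the rule were taken from a fit over all probes. Samples were grouped by whether their titles name nitrate, since the treatment text names NaNO3 for every array. Each gene was represented by its brightest detected probe, and gene names and mm9 positions are those of the files. The fit was tested on simulated data in which 200 probes had been changed.

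The 10 genes and all lists were chosen with earlier results of these data known. The text names every probe of the 10 genes, pathway genes that passed or are named for their role, and at most 3 genes of a marker list. Correlation tests drew 100000 resamples. Alternatives covered the scaling, background correction, an offset of 16, the log2 table, other detection rules, spots with flags, the prior variance, and the slide, scan day and replicate number as blocks, thresholds, the choice of probe, and each array left out. Detection without the spot-found flag and the correlations of Ptger3 with marker lists, also without control 1 and 3, were added after seeing the data. P values for differences between groups set them against the variation between arrays, which holds mouse and array effects together. Precision is limited by how many arrays there are. Vasoreactivity was not analysed here.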

Additional observations from a re-analysis of the deposited data

Results flagged for a closer look

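Within groups of 4 to 10 arrays, 54 sets of values of the prostanoid probes, the 6 pathway genes that passed, the marker lists and the 75th percentile of the signal were searched for a mouse far from the others, and 5 were found, where chance gives 2.7. In the Ptger1 probe, nitrate 5 was low at 5.61, with a gap to the next mouse of 0.758 of the range of the group. The other 4 all came from control 1. It was low in the mean of the smooth muscle genes (13.74, gap 0.720 of the range) and of the fibroblast genes (12.90, gap 0.711), and high in the mean of the brown adipocyte genes (13.06, gap 0.639) and of the striated muscle genes (11.65, gap 0.675). Control 1 also had the highest Ptger3 signal, and its part in the Ptger3 difference is given by the values without it.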

How the results depend on the processing

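Ptger3 passed the thresholds on both probes under every alternative setting of the fit, with differences from -1.05 to -0.62 on probe 1 and from -1.04 to -0.63 on probe 2. With Benjamini-Hochberg adjusted P values under 0.05 in limma, the prostanoid probes that passed went from 2 to 0 (3 of 8 had an unadjusted P value under 0.05) and the pathway genes from 6 to 0 (6 of 27 unadjusted). With each array left out the counts lay between 2 and 3 and between 3 and 7, and the lowest, 3, was without control 1. The count of prostanoid probes was 3 without control 2 (Ptger4 added), without a detection filter, with probes well above background on all 11 arrays, or without the spot-found flag (Ptger1 added), and with the replicate number as a block (Ptgs2 added, 0.58 with an unadjusted P value of 0.0481 by limma). In that paired fit, over the 5 numbers both groups have, 5 pathway genes passed. Deviations of mice with the same number correlated at 0.01, 0.12, -0.14, -0.13 and 0.18, and only nitrate 2 matched its own number best. Low correlations of this kind cannot exclude a pairing, so whether the numbers pair the mice was not settled. Tbxa2r changed sign, to 0.0033 with the 75th percentile scaling, 0.0034 with the slide, 0.0056 with the scan day and 0.0010 with the replicate number as a block, and it lay between -0.053 and 0.063 with each array left out. Pairs of genes with an adjusted P value under 0.05 stayed at 0 with the 75th percentile scaling. Ptger2 and Ptgfr were limited by signals near background.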
